A study of Mus musculus with 9 samples.

Results

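Heat shock proteins and their co-chaperones were followed in the cardiac ventricles of mouse fetuses that carried 2, 1 or 0 intact copies of Esrrg. Members were all genes whose symbol on the array begins with Hspa, Hspb, Hsph, Hsp90, Dnaja, Dnajb, Dnajc or Bag plus a digit, together with Cryab, Hsf1, Hsf2, Stip1 and Ahsa1. The mitochondrial chaperone genes Hspa9, Hspd1 and Hspe1 were left out. Only probe sets that name 1 gene were used, and each gene was read from its brightest probe set. The rule found 79 of the 18193 genes named on the array, through 183 probe sets. Hsp90ab1 and Hsf1 were not analysed here. Of the 79, 73 were bright enough to test, and Dnajb7, Dnajb13, Dnajc5g, Dnajc6, Dnajc22 and Hspb9 were not. The small heat shock proteins of muscle, 7 genes, are described apart from the rest.

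The tissue was the ventricle of male fetuses at E18.5 (embryonic day), shortly before birth, kept in RNAlater before total RNA was extracted. Wild type (WT) was ERRg +/+, heterozygous (HET) ERRg +/- and knockout (KO) ERRg -/-, where ERRg is the orphan nuclear receptor ERRγ encoded by Esrrg, and no other allele or treatment is named. Each genotype had 3 Affymetrix arrays, described as biological replicates. The labels speak of 3 ventricles per sample and do not settle whether these were pooled, so a p-value here reflects only how far these arrays spread. The comparisons ask how chaperone transcripts differ when the receptor is absent or at reduced dose.

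Chaperones bind unfolded or aggregating proteins. Small heat shock proteins hold them without using ATP, and several are abundant in striated muscle, where they associate with filaments of the sarcomere and with desmin. HSP70 proteins fold clients in an ATP cycle that J proteins (the Dnaja, Dnajb and Dnajc families) start and that exchange factors of the HSP110 and BAG families close. HSP90 proteins finish the folding of kinases and receptors with the help of co-chaperones. The heat-inducible members are switched on by heat shock factors, which bind inverted repeats of the 5-base unit NGAAN upstream of their targets.

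Promoters of 4 heat-inducible members are printed because the paired heat shock unit lies in them. Each run is the 250 bases before the start that the RefSeq promoter table (GRCm38.p6) uses for the gene, 5′ to 3′ on the gene's strand, with the matches to GAANNTTC or TTCNNGAA in capitals. The windows are chr5:135887669-135887918 on the plus strand for Hspb1, chr17:34972157-34972406 on the minus strand for Hspa1a, chr17:34959239-34959488 on the minus strand for Hspa1b and chr5:149636337-149636586 on the minus strand for Hsph1.
Hspb1: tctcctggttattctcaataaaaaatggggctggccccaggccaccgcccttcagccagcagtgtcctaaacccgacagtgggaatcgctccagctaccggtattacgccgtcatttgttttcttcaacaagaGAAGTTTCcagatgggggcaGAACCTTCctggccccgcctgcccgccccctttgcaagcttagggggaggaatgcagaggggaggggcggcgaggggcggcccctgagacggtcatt
Hspa1a: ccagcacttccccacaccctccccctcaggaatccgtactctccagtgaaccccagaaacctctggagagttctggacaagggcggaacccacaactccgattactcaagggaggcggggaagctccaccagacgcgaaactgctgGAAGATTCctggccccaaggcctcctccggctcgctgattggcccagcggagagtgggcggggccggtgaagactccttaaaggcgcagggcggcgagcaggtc
Hspa1b: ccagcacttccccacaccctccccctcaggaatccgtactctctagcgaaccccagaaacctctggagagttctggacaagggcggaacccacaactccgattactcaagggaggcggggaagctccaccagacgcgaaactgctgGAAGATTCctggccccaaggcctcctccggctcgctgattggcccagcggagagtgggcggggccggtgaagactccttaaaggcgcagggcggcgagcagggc
Hsph1: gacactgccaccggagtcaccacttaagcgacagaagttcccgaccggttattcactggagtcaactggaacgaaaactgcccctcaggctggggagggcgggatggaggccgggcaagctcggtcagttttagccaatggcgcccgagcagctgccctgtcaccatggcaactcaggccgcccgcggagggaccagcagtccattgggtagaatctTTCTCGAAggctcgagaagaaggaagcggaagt

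In Hspb1 the 2 matches begin 117 and 97 bases before the start, in Hspa1a and Hspa1b 1 match begins 104 bases before it, and in Hsph1 1 match begins 33 bases before it. RefSeq's listed span of Hsph1 reaches 162 bases into that window, so this match lies inside the span and its distance counts from a start within it. The windows of Hspa1a and Hspa1b, neighbouring copies of the stress-inducible HSP70 gene, are identical at 247 of 250 positions. A promoter was found for 65 of the 79 members. Both motifs are palindromes, so a match lies on both strands, and overlapping matches were counted. GAANNTTC was present in 9 of the 65 (13.85%), against 7.726% of 27025 gene promoters of the same length. TTCNNGAA was present in 4 (6.154%), against 8.115%. At least 1 of the pair was present in 12 (18.46%), against 14.55%. A response element of ERR receptors, TNAAGGTCA on either strand, matched 0 of the 65 windows and 1.302% of all promoters. A match describes letters in a window and is not a binding site, and the absence of a match says only that these letters are not in these 250 bases.

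The targeted gene followed the labels. Esrrg read 281, 213 and 206 on the WT arrays, 162, 164 and 162 on the HET arrays, and 58.3, 58.1 and 39.3 on the KO arrays, and no genotype overlapped another. Its KO minus WT difference was -1.88 ± 0.19 (log2 scale, SE; limma adjusted p = 0.00018). All signals are MAS5 intensities, and differences are in log2(signal + 16) with 1 mean per genotype, which understates the difference of dim genes. All 9 cardiomyocyte markers looked at (Myh6, Myh7, Myl2, Myl3, Tnnt2, Tnni3, Actc1, Pln and Ryr2) were bright enough to test. The arrays fall into 2 sets by their control transcripts, a partition found after the data were seen. The log2 ratio of the spike-ins thr and dap lay between -1.018 and -0.8123 on the 3 WT arrays and HET replicate 1, called the first spike-in set here, and between -1.331 and -1.196 on HET replicates 2 and 3 and the 3 KO arrays, the second set. All WT arrays are in the first set and all KO arrays in the second, so only the HET arrays link them, and genotype and spike-in set can be told apart only through 1 HET array against the other 2.

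With a limma adjusted p under 0.05 as the threshold, no member passed in any genotype pair. For KO against WT, 0 of 73 members passed, against 1.62% of the 13028 genes tested. With an unadjusted limma p under 0.05 there were 17 of 73 (23.29%), 6 higher and 11 lower in KO, against 17.2% of all genes. Of these, 6 were among the 7 muscle small heat shock proteins. The 66 other tested members held 11 (16.67%), 5 higher and 6 lower, which is near the share of all genes. For 26 members (35.62%) no KO array overlapped a WT array, 12 being higher and 14 lower in KO, against 25.0% of all genes. In all, 34 members had a higher and 39 a lower mean in KO, with a median difference of -0.03, and the median of all genes tested was -0.01. Differences were small: 5 members lay beyond 0.5 on the log2 scale in either direction, and 9.948% of all genes did. The HET mean lay between those of WT and KO for 36 of the 73, and the share over all genes was not counted. Since the HET arrays fall in both spike-in sets, a mean in between cannot be read as an effect of dose. The calls depended on HET replicate 1: without that array, 9 members passed between KO and WT, namely Hspb1, Hspb2, Hspb8, Cryab, Hsph1, Dnajc8 and Hspa5 lower and Hspa8 and Dnajb9 higher, and so did 840 of all genes tested (6.45%). Without HET replicate 3, 1 member passed (Hspb1, limma adjusted p = 0.0478), against 1.56% of all genes.

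**Figure D1:**
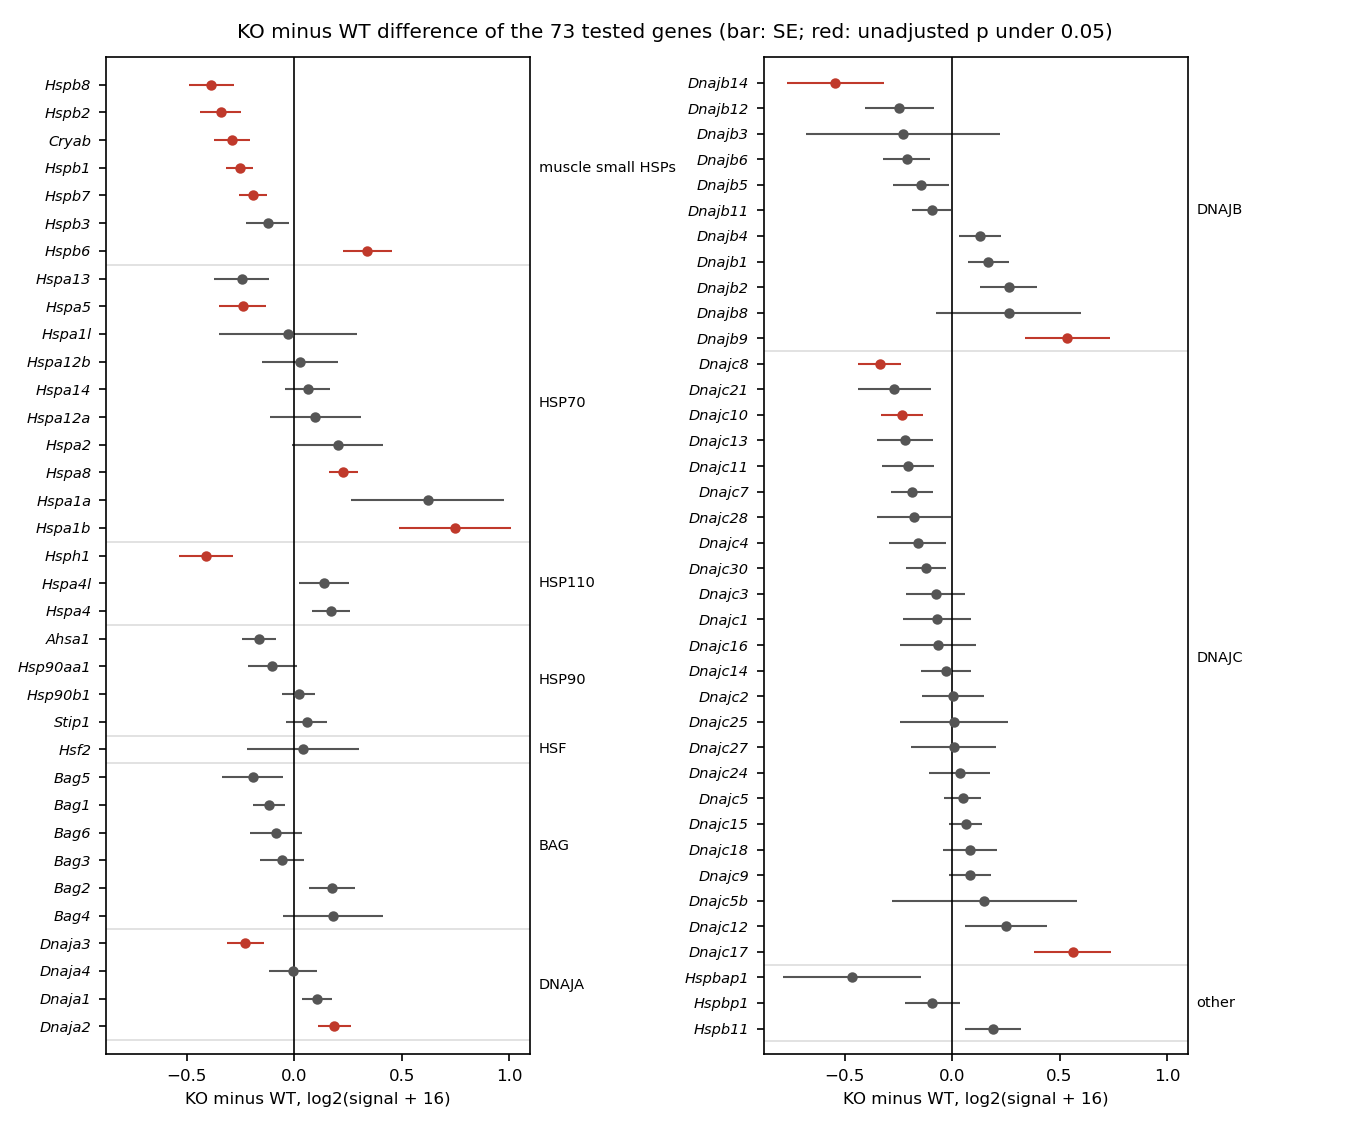
KO minus WT difference of each of the 73 tested genes in log2(signal + 16), grouped by family; points are differences, bars the SE from limma, and red marks the 17 with an unadjusted p under 0.05. The muscle small heat shock proteins lie left of 0 except Hspb6, and Hspa1b at 0.75 is the rightmost point.

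With the spike-in set added to the limma fit as a block, 3 of the 73 members (4.11%) had an unadjusted p under 0.05, against 6.19% of all genes. These were Hspb6 (0.48 ± 0.20) and Hspa5 (0.26 ± 0.11), higher in KO, and Dnajb14 (-0.93 ± 0.40), lower in KO. Hspa5 has the opposite sign without the block. Of the 17 members, 13 kept the sign of their difference with the block, Dnajc10 only at -3.2e-05, and 5 kept at least 50% of its size. Those 5 were Hspb6, Hspb8, Dnaja3, Dnajb14 and Dnajc17. The median size of the 17 was 0.34 without the block and 0.07 with it, counted along the direction each gene had without it. For 14 of the 17, HET replicates 2 and 3 differed from HET replicate 1 in the direction in which KO differed from WT. The 17 were chosen by their p without the block, so some loss of size or sign follows from that choice alone. Genes chosen in the same way among all those tested were not counted. The part of the spike-in set in these differences was not tested beyond these values.

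**Figure D2:**
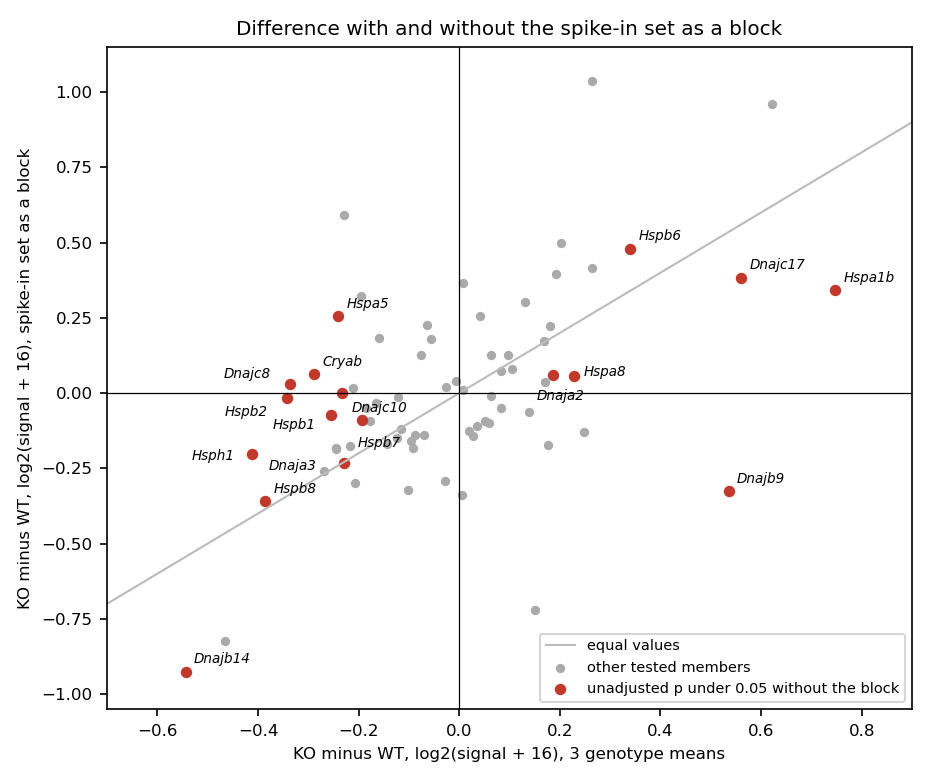
KO minus WT difference in log2(signal + 16) for each tested member, with 1 mean per genotype on the horizontal axis and with the spike-in set as a block on the vertical axis; red points had an unadjusted p under 0.05 without the block. Cryab, Hspb2, Dnajc8 and Dnajc10 sit near 0 on the vertical axis, Hspb8 and Dnaja3 on the line of equal values, and Hspa5 and Dnajb9 change sign.

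Among the muscle small heat shock proteins, 6 of 7 read lower in KO than in WT and Hspb6 read higher, with a median of -0.25 against -0.01 for all genes. All but Hspb3 had an unadjusted limma p under 0.05, and 0 of 7 passed after adjustment. With the block the median was -0.07, and 5 of 7 remained lower. The 9 cardiomyocyte markers had a median of -0.17 between KO and WT, with 7 of 9 lower and 6 of them at an unadjusted p under 0.05, and a median of 0.01 with the block. Their summed signal lay between 184798 and 198210 in WT, between 166678 and 188469 in HET and between 165018 and 181812 in KO. Of the other marker lists, fibroblast markers read higher in KO for 5 of 6 (median 0.10) and for 6 of 6 with the block (0.22). Endothelial, mural, epicardial, macrophage, atrial and skeletal muscle markers had medians between -0.07 and 0.08, and between 0.08 and 0.29 with the block. The erythroid list had 1 gene bright enough to test, at 0.14, and at 0.56 with the block (unadjusted limma p under 0.05). Among all marker genes 2 passed, the endothelial receptor gene Kdr, which fell by 0.74 ± 0.14 on the log2 scale (limma adjusted p = 0.0262), and the atrial peptide gene Nppa, which rose by 0.24 ± 0.06 (adjusted p = 0.0459). With the block Kdr was at -0.25 ± 0.19 (adjusted p = 0.882) and Nppa at 0.34 ± 0.08 (adjusted p = 0.361), and with any WT or KO array left out neither passed. The fit with the block called 1 of all 13028 genes tested, which was not Esrrg, so a lost call there does not by itself mark a lost difference. The part of cardiomyocyte RNA or of other cell types in the small heat shock protein differences was not tested. In such bulk tissue, fewer cells of a type and less RNA per cell cannot be told apart.

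Hspb1, the small heat shock protein HSP27 that caps actin and is induced by heat, read 14003, 14129 and 15109 (WT), 13896, 12486 and 11998 (HET) and 11870, 12097 and 12244 (KO). Every KO array was below every WT array, and HET replicate 1 stood near WT while the other 2 stood near KO. The KO minus WT difference was -0.25 ± 0.06 (0.838-fold), with the lowest adjusted p of any member (limma, 0.0535). It was -0.07 ± 0.08 with the block. The other bright probe set of Hspb1 gave the same difference, -0.25.

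Cryab encodes αB-crystallin, the desmin chaperone whose mutations cause myopathy. Its signals were 11025, 11068 and 12137 (WT), 11647, 9058 and 9172 (HET) and 8952, 9521 and 9509 (KO). WT and KO did not overlap, and again HET replicate 1 lay among the WT arrays. The difference of KO from WT was -0.29 ± 0.08 (limma adjusted p = 0.0907), against 0.06 ± 0.09 with the block. Within the first spike-in set HET replicate 1 differed from WT by 0.03, within the second KO differed from HET by 0.03, and HET replicates 2 and 3 differed from HET replicate 1 by -0.35. A second bright Cryab probe set went the other way: it read 6383, 6099 and 6213 (WT), 5929, 7814 and 7666 (HET) and 8030, 7403 and 7017 (KO), a KO minus WT difference of 0.26. On that set, too, the step lay between HET replicate 1 and the other HET arrays (0.38), with -0.07 and -0.05 within the sets. The 2 probe sets of Cryab thus disagree in direction.

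Hspb2, the neighbour of Cryab in the genome and a binder of the kinase DMPK, read 3429, 3664 and 4129 (WT), 3714, 2837 and 3086 (HET) and 2868, 2883 and 3074 (KO). It showed the Cryab pattern, with HET replicate 1 among the WT arrays and no overlap between WT and KO. The KO minus WT value was -0.34 ± 0.10 (limma adjusted p = 0.08), against -0.02 ± 0.13 with the block.

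Hspb8, which works with Bag3 in clearing damaged filament proteins, read 856, 903 and 790 (WT), 691, 698 and 660 (HET) and 740, 623 and 583 (KO). On this brightest probe set, all 3 HET arrays lay below every WT array, whichever spike-in set they belonged to. KO minus WT was -0.39 ± 0.11 (0.765-fold, limma adjusted p = 0.078) and -0.36 ± 0.18 with the block. HET replicate 1 already differed from WT by -0.29 within the first set. Both other Hspb8 probe sets bright enough to test were lower in KO on average, by -0.21 and -0.50. The brighter of them overlapped, at 510, 584 and 603 (WT), 505.5, 526 and 562 (HET) and 544, 432 and 483 (KO). The dimmest read 162, 620 and 241 on the WT arrays alone and so spread widely. Within the first spike-in set, HET replicate 1 differed from WT by -0.15 on the brighter and 0.008 on the dimmest. Bag3 itself, the co-chaperone partner, read 643, 657 and 636 (WT), 792, 690 and 652 (HET) and 669, 586 and 609 (KO), which overlapped (-0.06 ± 0.10).

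Hspb6, encoding HSP20, a phosphoprotein tied to relaxation of muscle, was the member of the family with more signal in KO. It read 2724, 2658 and 2935 (WT), 3403, 3725 and 2559 (HET) and 3782, 3696 and 3094 (KO). No KO array overlapped WT, while the HET arrays ran from below WT into the range of KO. Its KO minus WT difference was 0.34 ± 0.12 (1.27-fold, limma adjusted p = 0.135), against 0.48 ± 0.20 with the block. Both steps within the spike-in sets were upward, 0.30 from WT to HET replicate 1 and 0.18 from HET to KO, but only 1 probe set reads the gene.

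Hspb7, a cardiovascular small heat shock protein of the sarcomere, read 11137, 9637 and 10793 (WT), 10618, 9994 and 9763 (HET) and 9623, 8903 and 9051 (KO). KO was below WT by a narrow margin, since WT replicate 2 and KO replicate 1 nearly met. The difference was -0.19 ± 0.07 (limma adjusted p = 0.139), against -0.09 ± 0.10 with the block. Of its other 2 probe sets, one gave -0.16 and the other 0.20. Hspb3, which forms complexes with Hspb2, overlapped in all genotypes at 926, 830 and 964 (WT), 799, 752 and 880 (HET) and 888, 821 and 782 (KO) (-0.12 ± 0.10).

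**Figure D3:**
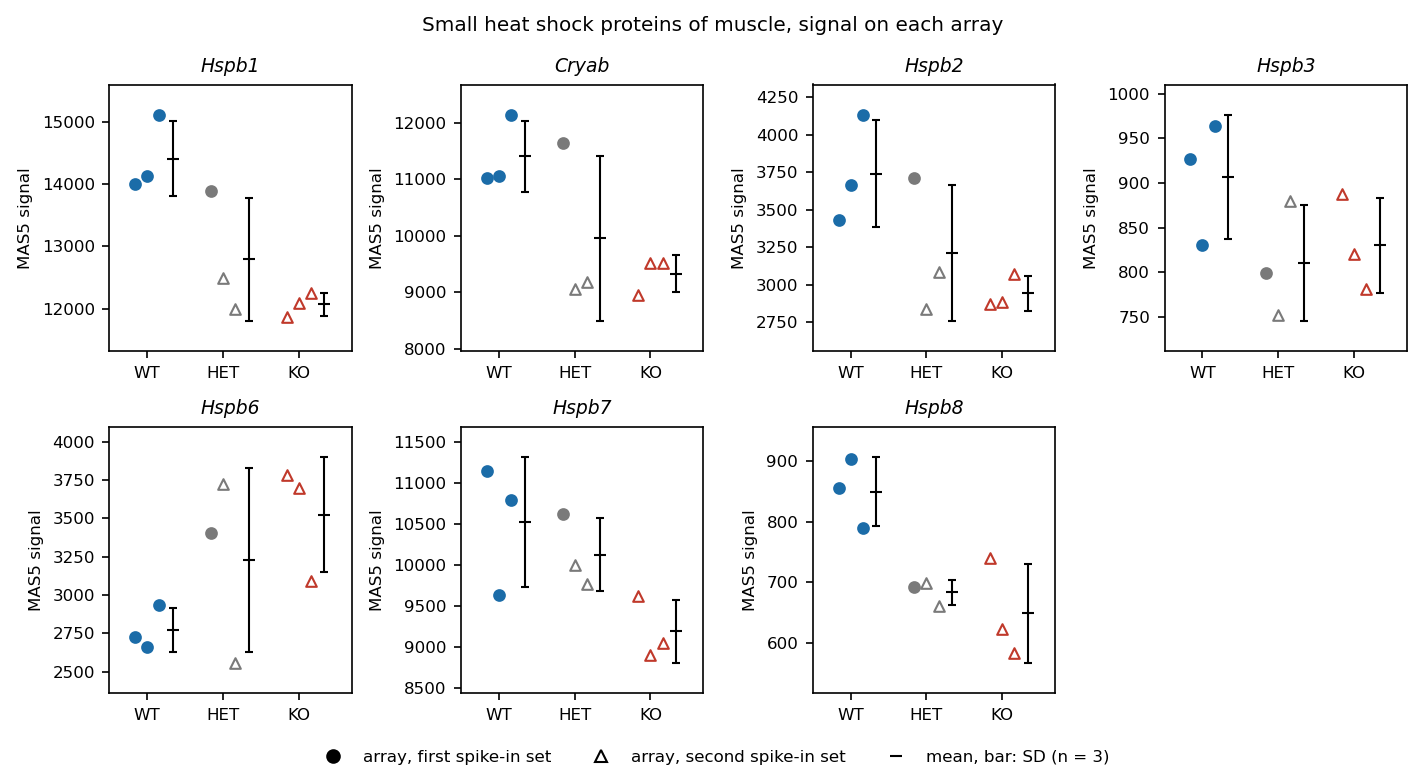
MAS5 signal of the 7 small heat shock proteins of muscle on each array (vertical axes do not start at 0), by genotype; filled circles are arrays of the first spike-in set, open triangles of the second, and black bars the mean and SD of 3 arrays. For Hspb1, Cryab and Hspb2 the filled HET circle lies apart from the 2 open HET triangles, whereas for Hspb8 all 3 HET arrays lie below WT.

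The HSP70 family had 10 tested genes, 7 higher and 3 lower in KO, with a median of 0.08. Hspa8, the constitutive HSC70 that is among the most abundant chaperones of any cell, read 9092, 10009 and 9275 (WT), 9393, 10742 and 10413 (HET) and 11005, 11726 and 10500 (KO). All KO arrays were above all WT arrays, and HET replicate 1 read with WT. KO exceeded WT by 0.23 ± 0.07 (1.17-fold, limma adjusted p = 0.0981), and by 0.06 ± 0.10 with the block. The other 3 Hspa8 probe sets gave 0.49, 0.62 and -0.12. The set at -0.12 was about as bright as the set used (WT means 9586 and 9459). That at 0.62 was dim, with means of 39 in WT and 69 in KO.

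Hspa1a and Hspa1b, the stress-inducible HSP70 genes whose promoters are shown above, were dim. Hspa1b read 44.3, 72.0 and 40.3 (WT), 57.1, 106 and 60.9 (HET) and 92.9, 100.5 and 95.5 (KO). KO was above WT throughout, by 0.75 ± 0.26 (1.68-fold, limma adjusted p = 0.142), and by 0.34 ± 0.46 with the block. Among the brightest probe sets, the value without the block was the largest of any member in either direction. The other 2 Hspa1b probe sets read lower in KO, by -0.42 and -0.13. Hspa1a read 8.89, 34.2 and 34.4 (WT), 42.2, 30.7 and 29.2 (HET) and 45.5, 53.8 and 37.4 (KO). Here KO was also above WT on every array, by 0.62 ± 0.36 (limma adjusted p = 0.40), and WT replicate 1 was far below the other WT arrays. Since the 2 genes are near-identical copies, a probe set named for one can take up transcript of the other, and their values are uncertain as separate measurements.

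Hspa5 encodes BiP, the HSP70 of the endoplasmic reticulum and a standard marker of stress in it. Its signals were 7777, 7905 and 7138 (WT), 8473, 5691 and 6326 (HET) and 6698, 6565 and 6040 (KO). KO lay below WT on every array, and HET replicate 1 was the highest of all 9 while HET replicate 2 was the lowest. The difference was -0.24 ± 0.11 (limma adjusted p = 0.264), but 0.26 ± 0.11 with the block. The other 2 probe sets of Hspa5 read higher in KO, by 0.67 and 0.83. One of them read 1662, 1684 and 1247 (WT), 1708, 2608 and 2482 (HET) and 2552, 2710 and 2049 (KO). On all 3 sets HET replicate 1 stood with WT and the other HET arrays with KO, so the direction for BiP turns with the probe set. Hspa13, a microsomal HSP70, gave 563, 570 and 774 (WT), 675, 702 and 596 (HET) and 577, 484 and 529 (KO). KO overlapped WT but lay below HET on every array (KO minus WT -0.24 ± 0.13, limma adjusted p = 0.351).

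Of the HSP110 exchange factors, Hsph1, which is heat-inducible, read 635, 594 and 498 (WT), 498.5, 467 and 393 (HET) and 443, 451 and 389 (KO). KO was below WT on every array, by -0.41 ± 0.13 (0.752-fold, limma adjusted p = 0.104), and by -0.20 ± 0.21 with the block. Its dimmer second probe set read 182, 112 and 140 (WT) and 252, 234 and 224 (KO), a difference of 0.67 in the other direction. Hspa4 read 1781, 1734 and 1578 (WT), 1769, 2111 and 1785 (HET) and 1910, 1965 and 1859 (KO), above WT without overlap by 0.17 ± 0.09 (limma adjusted p = 0.329). Hspa4l was at 0.14 ± 0.11 with overlapping groups.

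**Figure D4:**
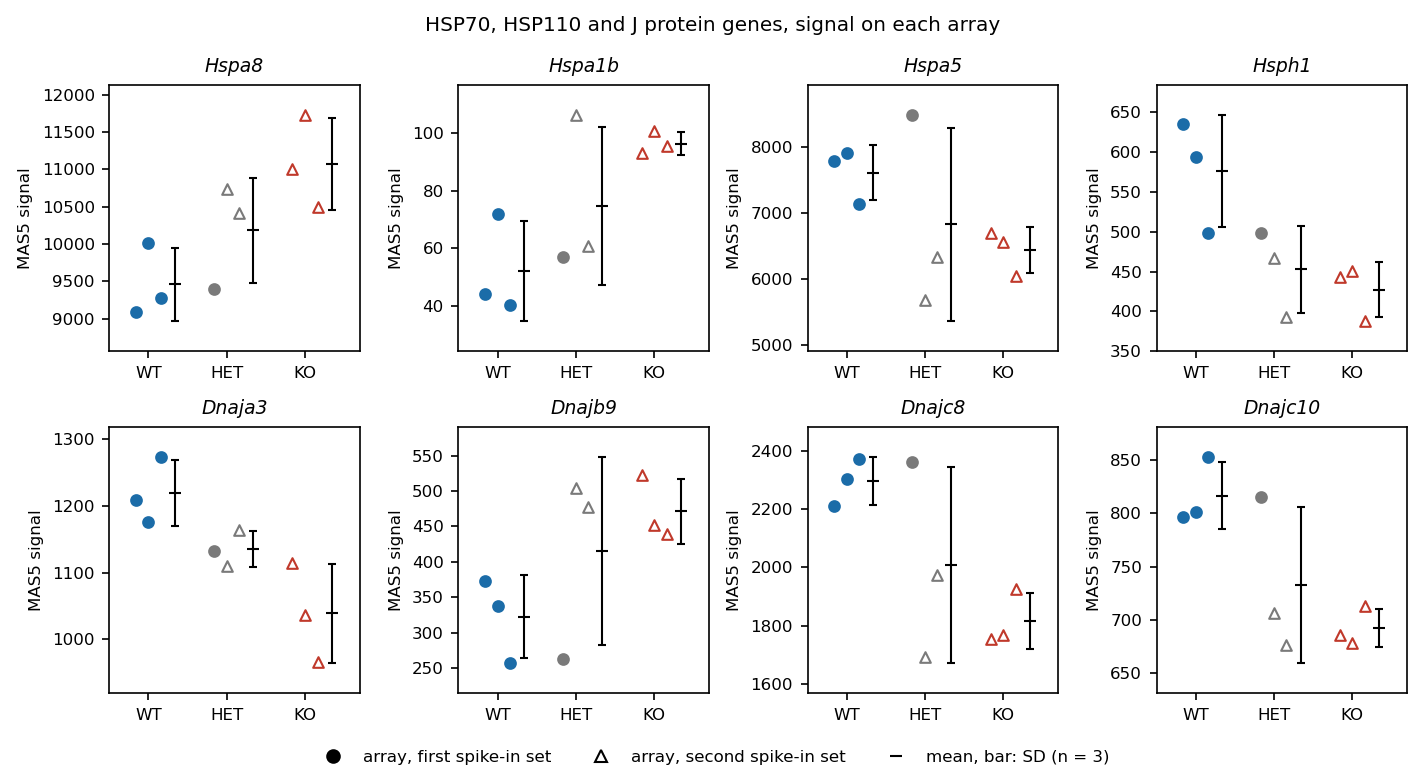
MAS5 signal of 4 HSP70 and HSP110 genes and 4 J protein genes on each array (vertical axes do not start at 0), by genotype; filled circles are arrays of the first spike-in set, open triangles of the second, and black bars the mean and SD of 3 arrays. KO and WT do not overlap in any panel. The filled HET circle lies within the WT range except for Hspa5, where it lies above, and Dnaja3, where it lies below. For Hsph1 it lies at the lower edge of that range.

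On their brightest probe sets, the 4 HSP90 proteins and cofactors that were tested differed by -0.17 to 0.06 between KO and WT. None had an unadjusted limma p under 0.05. Hsp90aa1, the inducible cytosolic HSP90, read 3937, 3479 and 3469 (WT), 3189, 4421 and 3126 (HET) and 3318, 3701 and 3127 (KO) (-0.10 ± 0.11). Hsp90b1, the HSP90 of the endoplasmic reticulum, differed by 0.02 ± 0.08, and Stip1, which passes clients from HSP70 to HSP90, by 0.06 ± 0.10. The other probe set of Hsp90b1 read 1111, 1038 and 1095 (WT), 868, 1698 and 1564 (HET) and 1572, 1722 and 1277 (KO). That is a KO minus WT difference of 0.48, without overlap. Other sets of Hsp90aa1 bright enough to test gave 0.32, 0.02 and -0.22, and a dim second set of Ahsa1 gave 0.19. Ahsa1, the activator of the HSP90 ATPase, read 1899, 2110 and 2181 (WT), 2152, 2050 and 1880 (HET) and 1844, 1822 and 1840 (KO). Its KO arrays were close together and below every WT array, by -0.17 ± 0.08 (limma adjusted p = 0.31), with -0.03 ± 0.13 under the block. Hsf2, the only heat shock factor gene analysed, was dim, with 60.2, 41.1 and 42.0 (WT), 75.6, 71.5 and 55.2 (HET) and 53.7, 42.5 and 51.2 (KO). Its KO arrays overlapped WT (0.04 ± 0.26) and lay below every HET array.

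No BAG family member had an unadjusted p under 0.05. Bag5, which joins HSP70 through several BAG domains, read 532, 563 and 554 (WT), 578, 363 and 438 (HET) and 502, 436 and 499 (KO) (-0.19 ± 0.14). KO lay below WT, yet HET replicate 1 was the highest array, and the block turned the difference to 0.32 ± 0.19. Bag2, an inhibitor of the ubiquitin ligase CHIP, read 810, 743 and 804 (WT), 699, 869 and 922 (HET) and 845, 918 and 907 (KO). The KO minus WT value was 0.18 ± 0.11 without the block and -0.17 ± 0.15 with it. Bag1 read 2299, 2247 and 2474 (WT), 2110, 2224 and 2009 (HET) and 2223, 2132 and 2114 (KO), below WT in both other genotypes (-0.12 ± 0.07 in KO, -0.15 ± 0.07 in HET). Bag4 overlapped (0.18 ± 0.23).

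J proteins made up 39 of the tested members, 4 DNAJA, 11 DNAJB and 24 DNAJC genes, of which 18 read higher and 21 lower in KO. Dnaja3, the mitochondrial J protein TID1 whose loss in the heart is known to cause dilated cardiomyopathy in mice, read 1209, 1176 and 1273 (WT), 1133, 1110 and 1164 (HET) and 1115, 1036 and 967 (KO). The 3 HET arrays lay below every WT array, and KO reached lower still. The KO minus WT difference was -0.23 ± 0.09 (0.853-fold, limma adjusted p = 0.173), against -0.23 ± 0.14 with the block. A second Dnaja3 probe set gave -0.13. Dnaja2, a cytosolic partner of HSC70, read 3998, 4197 and 3632 (WT), 3596, 4067 and 3782 (HET) and 4223, 4823 and 4416 (KO). KO was above both other genotypes without overlap, by 0.19 ± 0.08 over WT (limma adjusted p = 0.228) and by 0.23 over HET (adjusted p = 0.989). With the block the KO minus WT value was 0.06 ± 0.12. Its next brightest probe set went the other way without overlap, at 1591, 1576 and 1510 (WT) and 1374, 1449 and 1298 (KO), a difference of -0.18, and the 2 dimmer sets gave 0.16 and 0.22. Dnaja1 and Dnaja4 overlapped between KO and WT, at 0.10 ± 0.07 and -0.01 ± 0.11. The dimmest Dnaja1 set, however, did not overlap, at 80.25, 63.3 and 90.4 (WT), 84.6, 256 and 195 (HET) and 161, 185 and 168 (KO). Its KO minus WT difference was 1.00. The remaining Dnaja1 set gave 0.05, and the other sets of Dnaja4 gave 0.03 and 0.32.

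Dnajb9, an endoplasmic reticulum J protein that is a repressor of the stress sensor IRE1, read 373, 338 and 258 (WT), 263, 505 and 477 (HET) and 523, 452 and 439 (KO). HET replicate 1 was among the WT arrays and the other 2 HET arrays among KO. KO minus WT was 0.54 ± 0.20 (1.45-fold, limma adjusted p = 0.167), against -0.33 ± 0.24 with the block. Dnajb14, a J protein of the endoplasmic reticulum membrane, was dim at 108, 130 and 101 (WT), 62.7, 80.2 and 93.2 (HET) and 53.9, 89.9 and 76.2 (KO). Both HET and KO lay below WT on every array, with -0.54 ± 0.23 for KO minus WT (limma adjusted p = 0.224), against -0.93 ± 0.40 with the block. The other Dnajb14 probe set, similarly dim, read 62.0, 65.0 and 51.3 (WT), between 54.0 and 66.4 (HET) and 96.4, 90.0 and 94.6 (KO), the opposite difference (0.54). Dnajb2, a neuronal and muscle J protein, read 302, 368 and 351 (WT), 363, 358 and 295 (HET) and 387, 380 and 469.5 (KO), above WT without overlap (0.26 ± 0.13). Dnajb6, known for a limb-girdle muscular dystrophy, read 1143, 884 and 970 (WT), 881, 752 and 749 (HET) and 861, 906 and 804 (KO), with KO overlapping WT (-0.21 ± 0.11). Its other probe sets bright enough to test gave KO minus WT differences of -0.25, 0.57 and 0.26.

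Of the DNAJC genes, Dnajc8, a splicing-associated J protein, read 2210, 2305 and 2375 (WT), 2362, 1692 and 1972 (HET) and 1755, 1768 and 1925 (KO). KO was below WT without overlap (-0.34 ± 0.10, limma adjusted p = 0.0993), HET replicate 1 was within WT, and the block left 0.03 ± 0.13. Its second probe set gave 0.25. Dnajc10, a disulfide reductase of the endoplasmic reticulum, read 797, 801 and 853 (WT), 816, 706 and 676 (HET) and 685, 678 and 713 (KO). The HET arrays divided in the same way, and the difference of -0.23 ± 0.10 (limma adjusted p = 0.227) was 0.00 ± 0.15 with the block. Dnajc17 was dim, at 110, 127 and 95.5 (WT), 150, 178 and 165 (HET) and 189, 134 and 193 (KO). Both HET and KO exceeded WT on every array, by 0.52 ± 0.18 and 0.56 ± 0.18 (limma adjusted p = 0.332 and 0.117), with 0.38 ± 0.32 for KO under the block. Dnajc7, which binds HSP70 and HSP90, overlapped (-0.18 ± 0.10). Dnajc5b had the largest spread within genotypes of any tested member, at 32.6, 55.3 and 12.9 (WT), 11.2, 43.0 and 26.1 (HET) and 25.7, 26.2 and 61.7 (KO). The median residual SD was 0.15 for the members and 0.21 for all genes. The 3 tested members outside these families, Hspb11, Hspbp1 and Hspbap1, ranged from -0.47 to 0.19 between KO and WT. The 6 members too dim to test had signals of at most 42.2 on any array.

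By compartment, 8 of the 10 members of the endoplasmic reticulum read lower in KO, with a median of -0.16, against 51.62% of all genes. With the block 8 of 10 did so (-0.15), against 47.53%, but these were not the same 8. At an unadjusted limma p under 0.05, Hspa5, Dnajc10 and Dnajb14 were lower and Dnajb9 higher. With the block the sign of Hspa5 and Dnajb9 turned, as did that of Dnajc3 (-0.08 to 0.13) and Hsp90b1 (0.02 to -0.13). Other probe sets bright enough to test read higher in KO for Hspa5, Hsp90b1, Dnajb12, Dnajb14 and Dnajc10. Those of Dnajc1 read lower, and those of Hspa13 and Dnajc3 went both ways. Among the 4 mitochondrial J proteins, 3 read lower (median -0.16, and -0.12 with the block). Besides Dnaja3 these were Dnajc11, a partner of the inner membrane's MICOS complex (-0.21 ± 0.12), and Dnajc30 (-0.12 ± 0.09), while Dnajc15, a J protein of the import motor, was at 0.06 ± 0.08. The 12 heat-inducible members divided evenly, 6 higher and 6 lower, with a median of 0.00. Hspb1, Cryab and Hsph1 were lower and Hspa1b higher at an unadjusted p under 0.05.

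Between HET and WT, 0 of 73 members passed, against 0% of all genes. With an unadjusted limma p under 0.05 there were 8 (10.96%), 1 higher and 7 lower in HET, against 11.5% of all genes, and 4 of the 7 were muscle small heat shock proteins. The smallest p-values belonged to Dnajb6 (-0.32 ± 0.11, limma adjusted p = 0.325), Hspb8 (-0.31 ± 0.11, adjusted p = 0.327) and Hspb1 (-0.17 ± 0.06, adjusted p = 0.344) among those lower, and to Dnajc17, Hspb6 and Hspa4 among those higher. Hspb6 was at 0.20 ± 0.12 and Hspa4 at 0.15 ± 0.09. The other Dnajb6 probe sets bright enough to test read higher in HET than in WT. Their means were 340, 97.4 and 24.55 in WT and 395, 116 and 40.5 in HET. Without HET replicate 1, whose array lies in the WT spike-in set, 7 members passed between HET and WT (Bag5, Cryab, Dnajb9, Dnajc8, Hspa5, Hspb1 and Hspb2), against 574 of all genes (4.41%). With that array left out, the HET arrays are all in the second spike-in set and the WT arrays all in the first. Genotype and spike-in set then cannot be told apart. The comparison of HET and WT shares its WT arrays with that of KO and WT, so the values of both are given side by side only. Between KO and HET, 0 of 73 passed, against 0.0154% of all genes, and 2 (2.74%) had an unadjusted p under 0.05, against 4.81%. These were Dnaja2, higher, and Hspa13, lower in KO (-0.30). Next in order were Dnajb2 (0.27) and Hspa8 (0.12) on the higher side, and Hspb7 (-0.14) and Hspbap1 (-0.63), a dim gene for an HSP27-associated protein, on the lower side. The adjusted p of each of these was 0.989.

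Different probe sets of the same member often disagreed. Of 45 members with at least 2 probe sets bright enough to test, 27 (60%) had KO minus WT differences of opposite sign, against 58.84% of 6135 genes. The sets of a gene lay more than 0.5 apart for 18 (40%), against 36.51%. For the muscle genes Hspb1 and Hspb8 every probe set bright enough to test pointed the same way, while those of Cryab and Hspb7 did not, and Hspb2, Hspb3 and Hspb6 had a single such set. Between HET replicates 2 and 3 and HET replicate 1, which have the same genotype, the sets of 25 of the 45 members (55.56%) lay more than 0.5 apart, against 51.54% of the 6135 genes. Between KO and HET replicates 2 and 3, which share a spike-in set, those of 10 (22.22%) did, against 24.58%. The former difference sets 2 arrays against 1 and the latter 3 against 2. Fewer arrays alone give a wider spread, so these shares cannot be compared directly.

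**Figure D5:**
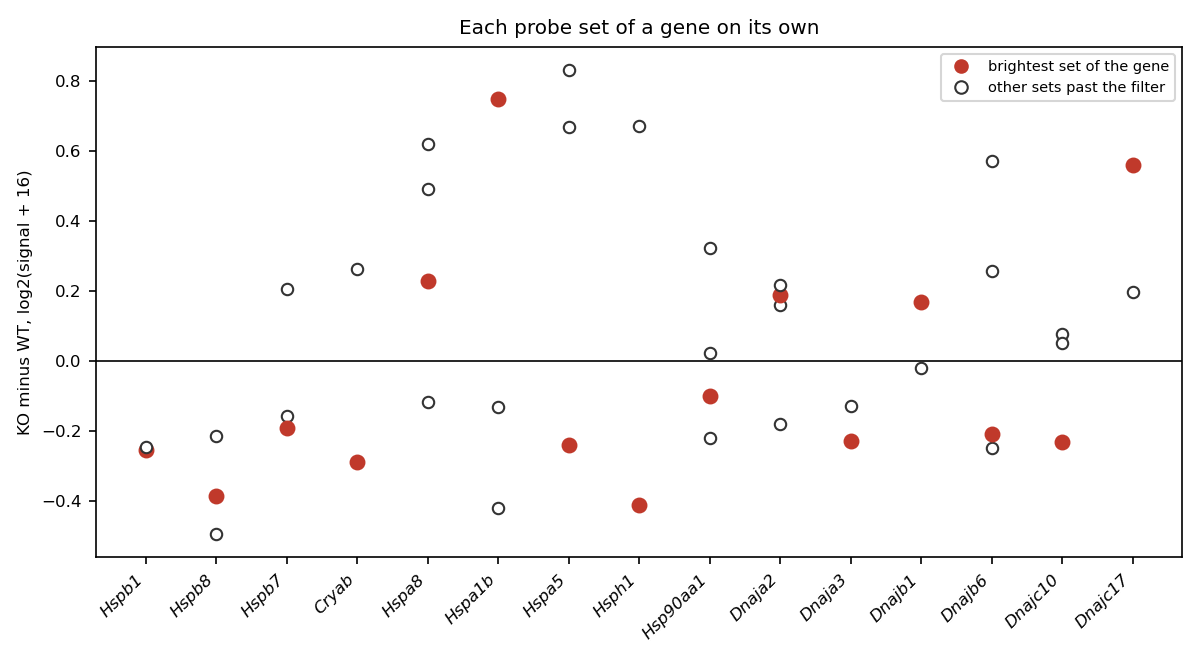
KO minus WT difference in log2(signal + 16) of every probe set bright enough to test for 15 members; red points are the brightest set of each gene, open points its other sets. All points of Hspb1, Hspb8, Dnaja3 and Dnajc17 lie on the same side of 0, while those of Cryab, Hspa5, Hsph1 and Hspa1b lie on both.

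Chaperones outside the rule were looked at in 4 lists. Of 18 other co-chaperones of HSP70 and HSP90, 14 read lower in KO (median -0.11), and 1 of the 18 passed the test, against 1.62% of all genes. That gene was Smyd1, a muscle methyltransferase that works with HSP90 on myosin, which fell by 0.42 ± 0.09 on the log2 scale (limma adjusted p = 0.0407). With the block Smyd1 was at -0.15 ± 0.14 (limma adjusted p = 0.905), in a fit that called 1 of all 13028 genes. With the mean of its probe sets it was at -0.12, and with each WT or KO array left out its adjusted p lay between 0.0823 and 0.148. With the block, 7 of the 18 read lower (median 0.02). Among 14 subunits of the chaperonin TRiC and of prefoldin, which fold actin and tubulin, 10 read lower (median -0.14), and 0 passed. At an unadjusted p under 0.05, 6 were lower and 2 higher (57.14%, against 17.2% of all genes). With the block 10 of the 14 read lower (median -0.06) and 0 of them had an unadjusted p under 0.05. Of 12 further chaperones of the endoplasmic reticulum 8 read lower (median -0.04), and of 10 mitochondrial chaperones 7 (median -0.08), with 0 passing in either list.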

How the data were processed

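Messenger RNA was measured in 9 ventricle samples, 3 per genotype, on 1 array each. The authors deposited MAS5 signals, that is 1 linear-scale intensity for each probe set, with MAS5 named in the submitters' processing notes and its version not given in the sources used. Each array's mean without its top and bottom 2% was 200, so they were scaled and not otherwise normalized to each other. MAS5 subtracts mismatch probes, which makes dim signals noisy. Array medians ran from 36.6 to 45.9. Precision is limited by how few arrays there are.

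Of 45101 probe sets, 34945 name 1 gene (932 several, 9160 none, 64 controls) in the platform annotation, and 34741 symbols were looked up by gene ID in a RefSeq table (GRCm38.p6). Signals became log2(signal + 16). The brightest set per gene was kept, and genes with a mean under the 40th percentile of probe sets (5.237, a signal of 21.7) were left out. Comparisons used limma (3.58.1, under R 4.3.3; 1 mean per genotype, eBayes with an intensity trend), two-sided, Benjamini-Hochberg over 13028 genes, call at an adjusted p under 0.05. The fit was tested on simulated data. Figures used matplotlib 3.10.9 in Python 3.11.15.

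The members, gene lists and tests were chosen with earlier results of these data known. Named were all muscle small heat shock proteins, up to 4 members with the smallest p per family or list, for HET against WT and KO against HET the 3 with the smallest p on either side, and the member of largest residual SD. Hspa1a, Bag3, Hspb11, Hspbp1, Smyd1, Kdr and Nppa were added after their values were seen. Prefixes were taken literally, so Hspbap1, Hspbp1 and Hspb11 are members. Alternatives were quantile normalization, a common array median, pseudocounts 1 and 64, a 60th percentile filter or none, averaged probe sets, no trend, array weights, a fit of the 6 arrays compared, the spike-in set or the replicate number as a block, members without Hspbap1 and Hspbp1, and each array left out. Counts at an unadjusted p and of lower muscle genes were followed through these after seeing the data.

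Replicate numbers are shared by the genotypes. Deviations of same-numbered arrays from their group means correlated between -0.043 and 0.046, so the numbers were not taken to pair the arrays.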

Additional observations from a re-analysis of the deposited data

How the results depend on the processing

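No member passed between KO and WT at an adjusted p under 0.05 with 1 mean per genotype over all 9 arrays. All genes called numbered 211. The count of members was 1 with quantile normalization (Hspa8; 170 of all genes), 1 with a filter at the 60th percentile (Hspb1; 211), 6 with array quality weights (612), 9 with only the 6 arrays compared (773), and 0 to 9 with each array left out, the 9 without HET replicate 1 (840). Between HET and WT it was 0 to 7 with arrays left out, and between KO and HET 0 in every setting run. The 17 members at an unadjusted p became 11 with arrays shifted to a common median, 9 with the mean of the probe sets and 3 with the spike-in set as a block. Esrrg was at -0.72 with the mean of its probe sets and -1.89 with the spike-in set, both no longer past the threshold. The replicate block left 0 members called, 17 at an unadjusted p and 6 muscle genes lower, and it changed no call of a member. Of 837 values of the 40 named members under alternatives, 33 turned the sign of KO minus WT, in 17 members. With the spike-in set these were Dnajc5b (-0.72), Dnajb9 (-0.33), Bag2 (-0.17), Hsp90b1 (-0.13), Stip1 (-0.10), Hspa4l (-0.064), Dnajb6 (0.016), Dnajc8 (0.031), Dnaja4 (0.041), Cryab (0.064), Hspa5 (0.26) and Bag5 (0.32). With the mean of the probe sets they were Hsf2 (-0.038), Ahsa1 (0.014), Dnajc11 (0.053), Dnajb6 (0.092), Dnaja4 (0.11), Hsph1 (0.13) and Hspa5 (0.42), and with a common median Dnaja4 (0.028). With arrays left out in turn, Hsf2 ranged from -0.033 to 0.18, Dnaja4 from -0.083 to 0.036, Hsp90b1 from -0.0047 to 0.057, Dnajc5b from -0.19 to 0.46, Bag4 from -0.043 to 0.36 and Stip1 from -0.0035 to 0.12. The causes were not tested. For dim members such as Hsf2 and Dnajc5b, small differences cannot be resolved with 3 arrays per genotype.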
